A study of Mus musculus with 24 samples.

Results

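Liver macrophages that lost Smad4 through a Cre active across hematopoietic cells were compared with control liver macrophages. The comparison rests on 6 of the 24 libraries of the series, 3 from Smad4 fl/fl Vav1Cre mice (Smad4 cKO, labelled Smad4FF cKO) and 3 from control mice (labelled Smad4FF), chosen by their labels. All mice were 8 to 10 weeks old and C57BL/6 by their labels (C57BL/6J in the study's methods). The macrophages were sorted from liver as CD45+Ly6C-F4/80+CD64+ cells and measured by bulk RNA-seq. Both groups carried floxed Smad4 alleles by their labels, and the Cre set them apart. Vav1Cre deletes in blood cell lineages in general, so these libraries do not separate loss in Kupffer cells (KCs) from loss in monocytes or other blood cells. In bulk samples, fewer cells of a type and less RNA per cell cannot be told apart. The study's methods call the replicates of its RNA-seq independent and biological, and the labels number them without naming the mice.

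SMAD4 is the shared partner that receptor-activated SMAD proteins bind before they act on genes in the nucleus. It serves the BMP branch, in which GDF2 (BMP9) and BMP10 act through ALK1 (encoded by Acvrl1) and raise the Id genes, and the TGF-beta and activin branch, which signals through TGFBR1 and SMAD2 or SMAD3. KCs are the resident macrophages of the liver sinusoids. They take up blood-borne particles and old red cells, and carry a set of genes that few other macrophages express, among them Clec4f, Vsig4, Timd4 and Cd5l. The question of the comparison is which parts of this KC program need Smad4 in blood-derived cells, and which genes are gained in its absence.

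Of 17517 genes tested, 951 (5.43%) were differentially expressed genes (DEGs), which means a Benjamini-Hochberg adjusted p below 0.05 in edgeR's quasi-likelihood test and a log2 fold change above 1 in size. 484 (2.76%) were higher and 467 (2.67%) lower in Smad4 cKO macrophages. These shares are the background for each gene list below. With library size alone as scaling, the median log2 fold change of all genes moved from 0.04 to 0.19, with 645 genes higher and 389 lower. The 6 libraries held 79290188 to 110879155 counts, and a floor of 3 counts came to at most 0.0358 CPM (counts scaled to a common library size), so a gene at 1 CPM rested on many more counts than the floor. Leaving out control replicate 3 lowered the number of DEGs to 566, and leaving out Smad4 cKO replicate 1 lowered it to 624. The direction of the change held for all 114 DEGs chosen by the rule for named genes in each fit that left out a library, while 82 of them stayed DEGs in all 6 of those fits.

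The sorted macrophages carried transcripts of other liver cells. The summed CPM of 14 pan-endothelial genes, divided by the mean sum in 3 control libraries of sorted hepatic endothelial cells (ECs), gave an endothelial share of 11.8, 3.29 and 11.4% for controls and of 11.5, 12.1 and 8.87% for Smad4 cKO. Control replicate 2 thus stood apart, and the other 5 libraries overlapped between groups. The share differed among the 14 genes, from 2.87 to 29.9% outside control replicate 2, so the level that ECs would supply to a gene is known only within a range. None of the 14 pan-endothelial and none of the 12 sinusoidal endothelial genes was a DEG. The EC-supplied level given below is a gene's mean CPM in control ECs times the share of the library. For none of the 951 DEGs did the difference in EC-supplied level, taken in the direction of the measured change, reach 50% of the measured difference. The mean share was higher in Smad4 cKO, so this outcome was fixed in advance for the 467 lower DEGs. The mean shares were also too close for a higher DEG to reach it easily. This count therefore does not show which DEGs are free of EC transcripts.

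**Figure D1:**
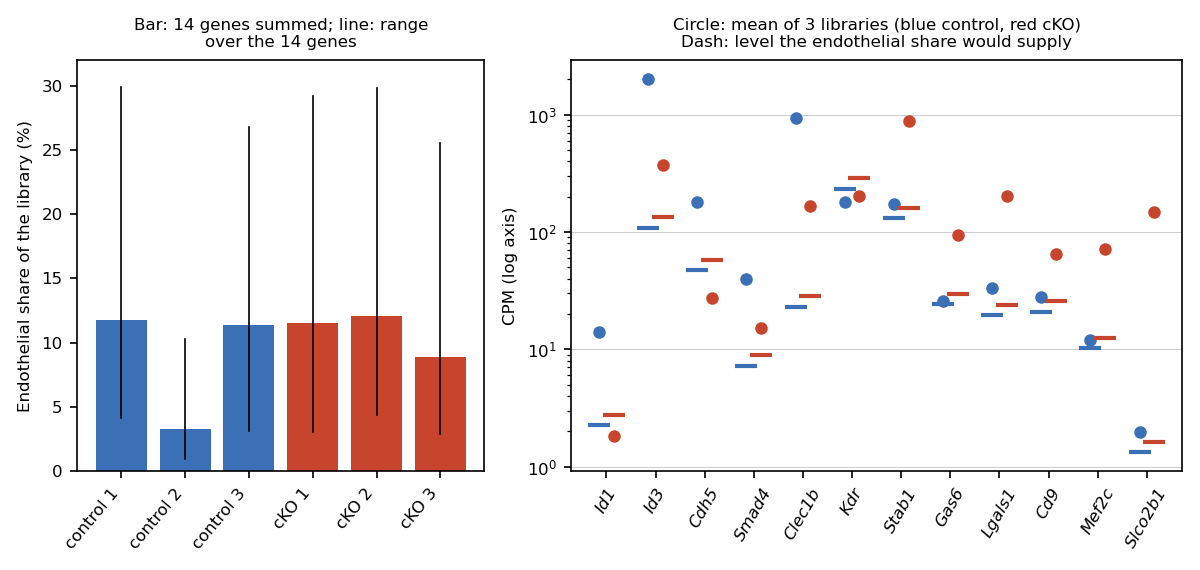
Left, endothelial share in percent of each library (bars, 14 genes summed; lines, lowest to highest of the 14 genes), where control replicate 2 is low at 3.29%. Right, mean CPM of 3 libraries per group (circles, log axis) beside the level the endothelial share would supply (dashes): Id1 and Cdh5 in Smad4 cKO lie under their dash, while Stab1, Mef2c and Slco2b1 in Smad4 cKO lie above it.

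Markers of further cell types were present too. The 12 hepatocyte genes summed to 311 to 565 CPM in controls and 161 to 564 CPM in Smad4 cKO. The 12 T and NK cell genes summed to 94.6 to 219 CPM in controls and 96.4 to 436 CPM in Smad4 cKO, with the top value in replicate 2. The 9 B and plasma cell genes summed to 105 to 161 CPM in controls and 217 to 229 CPM in Smad4 cKO, groups that did not overlap. The 10 stellate cell genes summed to 199 to 233 CPM in controls and 140 to 196 CPM in Smad4 cKO, which did not overlap either, and the DEG of that list, Ecm1, an extracellular matrix protein gene, was lower. Whether these sums overlap without Ecm1 was not tested. The same list summed to a mean of 184.6 CPM in control ECs and 448.2 CPM in control liver. The 9 neutrophil genes summed to 34.9 to 62.0 CPM in controls and 36.0 to 42.0 CPM in Smad4 cKO, with 0 DEGs among the 4 tested. The part of these cells in the results was not tested, apart from the T and NK marker sum. Among B cell genes, the DEG was Cd79b, a B cell receptor subunit, while Ms4a1 was no DEG. Without Cd79b, the other 8 genes summed to 46.6, 46.9 and 33.8 CPM in controls and 14.3, 47.9 and 25.5 CPM in Smad4 cKO, which overlap. Csf1r, the receptor that macrophages need for survival, was at 2880.3, 3230.3 and 3070.4 CPM in controls and 2778, 2452 and 2941 CPM in Smad4 cKO, which overlap, and the complement gene C1qa was no DEG either. These defining macrophage genes were thus high in both groups.

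Smad4 itself was at 40.1, 35.2 and 42.8 CPM in controls and at 17.2, 12.6 and 15.4 CPM in Smad4 cKO. The groups did not overlap, and the log2 fold change of Smad4 was -1.39, with a standard error (SE) of 0.16 (edgeR adjusted p = 0.0023). By the summed share, ECs would supply a mean of 8.89 of the 15.1 CPM left in Smad4 cKO. At the highest share that any of the pan-endothelial genes gives, they would supply 24, 24.4 and 20.9 CPM. These values are above the measured level in each Smad4 cKO library, so the Smad4 level left in the macrophages themselves is not settled. The log2 fold change of -1.39 describes the measured level, EC transcripts included. The counts are per gene and not per exon, so reads from exons outside the floxed part are included.

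Promoters of 6 genes are printed here because these genes mark the programs lost and gained below: Id3, Smad9, Nr1h3 and Clec4f fell, and Tgfbr1 and Cx3cr1 rose. Each sequence runs 5′ to 3′ along the gene from 250 bases before to 50 bases after a RefSeq start, in lower case, with GGCGCC, a GC-rich element described for BMP-activated SMADs, in capitals. GTCTAGAC, the palindrome that SMAD3 and SMAD4 bind in vitro, was searched as well and is absent from these windows.
Id3, GRCm38.p6 chr4:136143572-136143871, plus strand: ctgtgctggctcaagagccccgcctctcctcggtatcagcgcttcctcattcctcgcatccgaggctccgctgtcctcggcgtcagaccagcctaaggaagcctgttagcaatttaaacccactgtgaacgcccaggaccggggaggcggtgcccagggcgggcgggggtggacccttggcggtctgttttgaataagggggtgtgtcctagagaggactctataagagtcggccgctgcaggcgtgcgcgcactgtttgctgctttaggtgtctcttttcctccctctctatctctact
Smad9, GRCm38.p6 chr3:54755332-54755631, plus strand: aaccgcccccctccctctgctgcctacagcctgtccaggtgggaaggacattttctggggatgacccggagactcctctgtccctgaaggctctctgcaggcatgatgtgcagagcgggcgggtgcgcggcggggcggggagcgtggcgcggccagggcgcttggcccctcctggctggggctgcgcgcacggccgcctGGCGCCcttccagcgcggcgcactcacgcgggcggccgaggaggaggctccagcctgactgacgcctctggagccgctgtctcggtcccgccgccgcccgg
Nr1h3, GRCm38.p6 chr2:91195067-91195366, minus strand: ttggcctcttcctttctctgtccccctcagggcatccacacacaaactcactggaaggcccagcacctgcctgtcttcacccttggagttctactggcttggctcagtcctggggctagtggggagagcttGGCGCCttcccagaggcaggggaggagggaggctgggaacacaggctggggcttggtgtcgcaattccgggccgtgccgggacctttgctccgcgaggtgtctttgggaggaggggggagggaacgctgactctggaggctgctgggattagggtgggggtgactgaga
Clec4f, GRCm38.p6 chr6:83656067-83656366, minus strand: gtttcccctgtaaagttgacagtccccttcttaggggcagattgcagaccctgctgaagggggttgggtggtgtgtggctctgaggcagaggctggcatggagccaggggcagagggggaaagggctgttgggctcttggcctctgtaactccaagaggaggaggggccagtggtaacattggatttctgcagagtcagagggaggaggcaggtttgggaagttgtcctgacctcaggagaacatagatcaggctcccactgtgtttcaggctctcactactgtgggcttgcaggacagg
Tgfbr1, GRCm38.p6 chr4:47352972-47353271, plus strand: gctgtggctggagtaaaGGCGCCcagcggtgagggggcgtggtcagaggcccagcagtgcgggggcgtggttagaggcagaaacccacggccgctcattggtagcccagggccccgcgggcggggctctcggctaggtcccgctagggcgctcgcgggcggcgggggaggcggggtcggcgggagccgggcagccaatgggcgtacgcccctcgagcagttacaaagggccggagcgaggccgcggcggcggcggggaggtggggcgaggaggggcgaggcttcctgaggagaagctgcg
Cx3cr1, GRCm38.p6 chr9:120068247-120068546, minus strand: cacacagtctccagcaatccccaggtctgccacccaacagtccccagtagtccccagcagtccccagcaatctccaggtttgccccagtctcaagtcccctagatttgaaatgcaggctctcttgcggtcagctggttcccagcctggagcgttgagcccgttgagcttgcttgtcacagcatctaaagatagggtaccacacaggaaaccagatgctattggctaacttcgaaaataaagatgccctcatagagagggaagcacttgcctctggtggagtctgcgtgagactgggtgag
GGCGCC, which reads the same on both strands, was found in the printed windows of Smad9, Nr1h3 and Tgfbr1 and not in those of Id3, Clec4f or Cx3cr1. Nr1h3 and Tgfbr1 each have another window, from another start, that is not printed. The motif is present in that of Nr1h3 and absent from that of Tgfbr1. Over all genes with a window, it was present in at least 1 window of 18.8% of the 335 lower DEGs, 20.9% of the 316 higher DEGs and 22.8% of the 10990 tested genes. GTCTAGAC, also a palindrome, was present for 0 of the 335 lower DEGs, 2 of the 316 higher DEGs and 28 of the 10990 tested genes. The GGCGCC share of DEGs lay below that of all tested genes in both directions. A match is a description of the letters and not a binding site. 77 of the 118 genes chosen by the naming rule had a window in the RefSeq table.

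The KC program was the part most widely lost. Of 26 Kupffer identity genes, all tested, 21 fell and 0 rose, beside 2.67% of all genes that fell, and the median log2 fold change was -2.92, beside 0.04 over all tested genes. In the fits that left out a library, 19 to 21 genes of the list fell. Clec4f, a C-type lectin that binds galactose-bearing glycans, was at 11971, 15195 and 11517 CPM in controls and at 1.47, 0.0344 and 0.191 CPM in Smad4 cKO. That is a fall by 14.48 on the log2 scale (SE 1.34, edgeR adjusted p = 0.00094), and ECs would supply a mean of 0.764 CPM, more than in 2 of the 3 Smad4 cKO libraries. Fabp7, a fatty acid binding protein gene (chromosome 10, 57784881 to 57788450 in GRCm38), was at 162, 149 and 121 CPM in controls and had 0 counts in each Smad4 cKO library, so that it was at least 4020-fold lower. Fabp7 thus had no counts in any Smad4 cKO library, whereas Clec4f kept 1.47 CPM in replicate 1.

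Cd5l, which encodes a secreted macrophage scavenger protein, was at 7606, 9741 and 9272 CPM in controls and at 66.5, 96.1 and 27.4 CPM in Smad4 cKO. It fell by 7.13 on the log2 scale (SE 0.51, edgeR adjusted p = 0.00034), but ECs would supply 1.03 CPM, so a low level stayed in each Smad4 cKO library. Cxcl13, the B cell attracting chemokine, went from 363, 474 and 296 CPM to 0.0721, 0.103 and 0.370 CPM (fell by 11.08 on the log2 scale, SE 0.60, edgeR adjusted p = 0.00011). Cd207, which encodes the lectin langerin, was at 165, 51.6 and 39.98 CPM in controls, a wide spread, and at 0.124, 0.448 and 0 CPM in Smad4 cKO. Folr2, a folate receptor gene, was at 1789, 2205 and 1486 CPM in controls and at 64.1, 76.2 and 72.9 CPM in Smad4 cKO.

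A second set of KC genes fell and stayed well above the floor. Vsig4, the complement receptor by which KCs bind opsonised particles, was at 2891, 3364 and 2909 CPM in controls and at 342, 334 and 377 CPM in Smad4 cKO (fell by 3.12 on the log2 scale, SE 0.13, edgeR adjusted p = 4.7e-05). Timd4, a phosphatidylserine receptor carried by long-lived resident macrophages, was at 549.9, 743 and 591 CPM in controls and at 86.2, 96.1 and 119 CPM in Smad4 cKO (fell by 2.65, SE 0.18, edgeR adjusted p = 0.00029). Clec1b, which encodes CLEC2, was at 673, 1101 and 1023 CPM in controls and at 207, 168 and 129 CPM in Smad4 cKO (fell by 2.47, SE 0.25, edgeR adjusted p = 0.0013). None of these 3 genes overlapped between the groups, and by the summed share ECs would supply a mean of 28.2 CPM of Clec1b and less of the others. At the highest share of the 14 endothelial genes, they would supply 76.1, 77.7 and 66.5 CPM of the Clec1b in Smad4 cKO, still below the level left. In the annotation, exons of Clec1b overlap those of Clec9a on the same strand, so their reads are not fully separate.

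Cdh5, VE-cadherin, is expressed by KCs as well as ECs. It was at 203, 166 and 174 CPM in controls and at 29.1, 28.9 and 24.2 CPM in Smad4 cKO (fell by 2.73 on the log2 scale, SE 0.14, edgeR adjusted p = 0.00010). The EC-supplied level would be 57.9 CPM in Smad4 cKO, which is more than the 27.4 CPM measured, so the Cdh5 left in Smad4 cKO was not above the EC level. The sort also keeps cells by F4/80, and Adgre1, which encodes F4/80, was itself lower, at 205, 158 and 209 CPM against 445, 483 and 492 CPM in controls (fell by 1.31, SE 0.14, edgeR adjusted p = 0.0018).

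Of the 26 genes, 5 were no DEGs and are named as the exceptions. Hmox1, Slc40a1 and Cd163, which handle heme, iron and hemoglobin, had log2 fold changes of -0.85, -0.66 and -0.69 with edgeR adjusted p = 0.039, 0.013 and 0.032, below the fold threshold. Cd38 had a log2 fold change of -0.35 (edgeR adjusted p = 0.28). Spic, the transcription factor of iron-recycling macrophages, was at 188, 339 and 220.3 CPM in controls and 458, 414 and 382 CPM in Smad4 cKO, the single list member above 0 (log2 fold change 0.75, edgeR adjusted p = 0.094), and it became a DEG without control replicate 2.

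**Figure D2:**
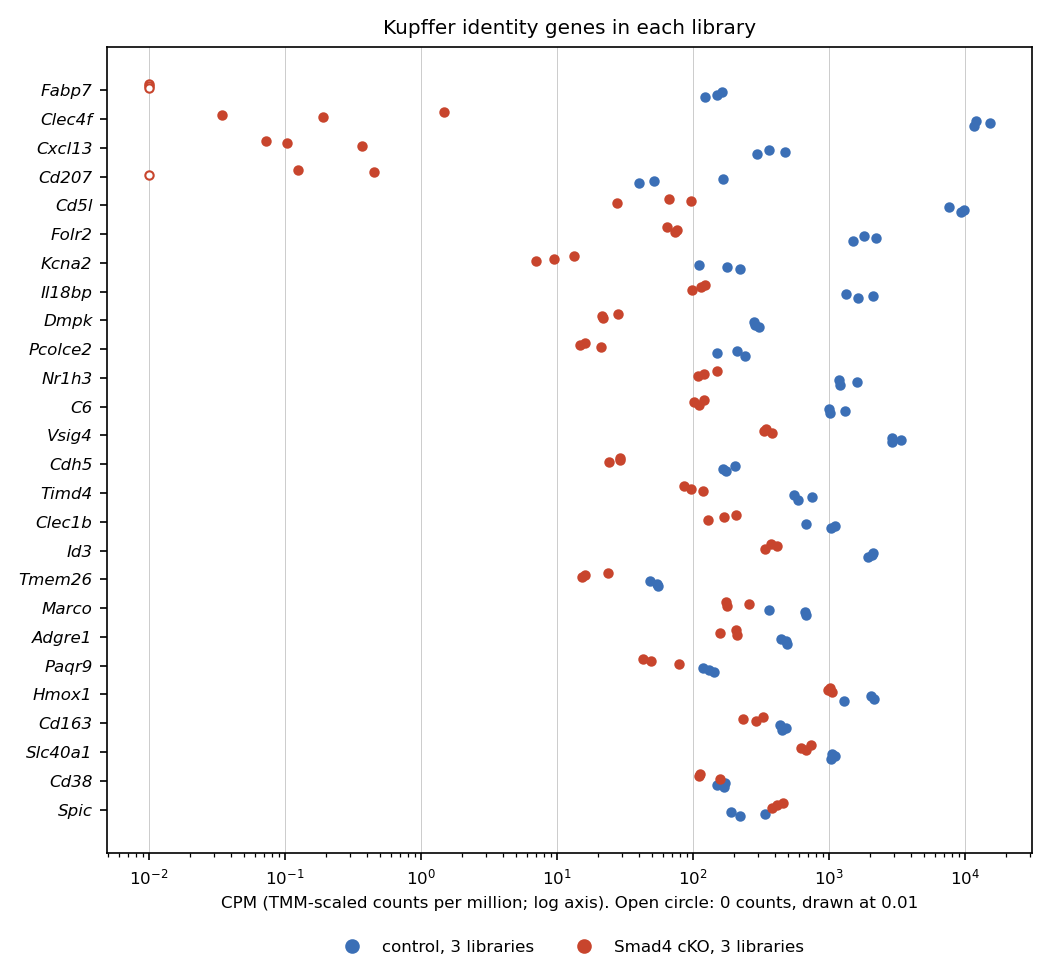
CPM (log axis) of the 26 Kupffer identity genes in each of 3 control (blue) and 3 Smad4 cKO (red) libraries, ordered by log2 fold change, with open circles for 0 counts. Fabp7, Clec4f, Cxcl13 and Cd207 drop to at most 1.47 CPM in each Smad4 cKO library, Vsig4, Timd4 and Clec1b keep at least 86.2 CPM, and Spic is the gene with higher Smad4 cKO values.

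Of 17 genes that read out SMAD signaling, 6 fell and 2 rose. Id1, an inhibitor of basic helix-loop-helix factors and a direct BMP target, was at 15.1, 15.5 and 11.5 CPM in controls and at 2.20, 1.98 and 1.33 CPM in Smad4 cKO (fell by 2.93 on the log2 scale, SE 0.25, edgeR adjusted p = 0.00079). ECs would supply 2.76 CPM, more than the 1.84 CPM measured in Smad4 cKO. Id3, its relative that KCs express at a high level, was at 2088, 2068 and 1930.0 CPM in controls and at 372, 415 and 336 CPM in Smad4 cKO (fell by 2.44, SE 0.13, edgeR adjusted p = 0.00010). By the summed share, ECs would supply 133 CPM of the 374 CPM measured in Smad4 cKO. At the highest share that any of the 14 endothelial genes gives, they would supply 359, 366 and 313 CPM, which is close to the level left.

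Smad9, a BMP-responsive SMAD gene, was at 0.360, 0.896 and 0.620 CPM in controls and had 0 counts in each Smad4 cKO library, at least 17.5-fold lower. Hey1, a target of both BMP and Notch signaling, was at 2.63, 3.86 and 3.27 CPM against 0.319, 0.818 and 0.0955 CPM (fell by 2.96 on the log2 scale, SE 0.66, edgeR adjusted p = 0.038), a call that was lost without any of 4 libraries (each control replicate and Smad4 cKO replicate 1). Hey1 was also the DEG among 13 tested Notch pathway genes. The remaining 2 lower SMAD targets, Id2 and Smad7, fell by 1.64 and 1.46. The 4.54 CPM of Smad7 measured in Smad4 cKO were not above the 5.49 CPM that ECs would supply.

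Among the targets that rose was Pmepa1, which TGF-beta induces in many cells. Pmepa1, which encodes a membrane inhibitor of TGF-beta signaling, was at 5.09, 3.34 and 4.69 CPM in controls and at 95.3, 113 and 128 CPM in Smad4 cKO (log2 fold change 4.68, SE 0.22, edgeR adjusted p = 6.4e-05). The groups lay far apart.

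Among 16 tested receptors and SMADs of both branches, 2 rose and 2 fell, one of the falls being Smad4 itself, the deleted gene. Tgfbr1, the type I TGF-beta receptor, was at 34.5, 28.95 and 29.7 CPM in controls and at 113, 82.0 and 112 CPM in Smad4 cKO (log2 fold change 1.72, SE 0.16, edgeR adjusted p = 0.0011). Smad3, at 12.9, 7.78 and 8.01 CPM against 23.7, 17.7 and 45.6 CPM, was a weaker call (log2 fold change 1.60, SE 0.38, edgeR adjusted p = 0.045), and so was the fall of the BMP receptor gene Bmpr1a, at 8.35, 6.88 and 6.68 CPM against 2.28, 3.16 and 4.13 CPM (log2 fold change -1.20, SE 0.26, edgeR adjusted p = 0.031). The calls of Smad3 and Bmpr1a were each lost in 5 of 6 fits that left out a library. Acvrl1, which encodes ALK1, was at 162, 197 and 161 CPM in controls and at 154, 132 and 154 CPM in Smad4 cKO (log2 fold change -0.24, SE 0.13, edgeR adjusted p = 0.36).

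Of 35 tested macrophage transcription factors, 7 fell and 4 rose, and the median log2 fold change was -0.07. Nr1h3, which encodes LXR-alpha and is part of the KC identity list too, was at 1172, 1607 and 1197 CPM in controls and at 149, 119.9 and 109 CPM in Smad4 cKO (fell by 3.40 on the log2 scale, SE 0.19, edgeR adjusted p = 0.00013). Irf7, the interferon response factor, fell by 2.30 (SE 0.26, edgeR adjusted p = 0.0021). Mef2c, a myocyte enhancer factor also used by microglia, was at 13.3, 8.27 and 14.6 CPM in controls, where ECs would supply 10.2 CPM, and at 76.3, 70.1 and 67.2 CPM in Smad4 cKO (log2 fold change 2.56, SE 0.22, edgeR adjusted p = 0.00082). Bhlhe41, a basic helix-loop-helix repressor of tissue macrophages, rose from 0.247, 1.20 and 1.34 CPM to 21.6, 26.5 and 26.2 CPM (log2 fold change 4.74, SE 0.56, edgeR adjusted p = 0.0028). Rxra, the retinoid X receptor that pairs with LXR-alpha, was at 187, 193 and 188 CPM against 148, 121 and 152 CPM, without overlap but not past the threshold (log2 fold change -0.43, SE 0.12, edgeR adjusted p = 0.086).

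Along with Nr1h3, genes that LXR controls fell more often than they rose. Of 20 LXR targets, Nr1h3 and Cd5l among them, 8 fell and 1 rose. Apoc1, an apolipoprotein gene, was at 929, 982 and 735 CPM in controls and at 55.5, 91.6 and 73.4 CPM in Smad4 cKO (fell by 3.59 on the log2 scale, SE 0.23, edgeR adjusted p = 0.00018). Pltp, which encodes the phospholipid transfer protein, fell by 1.97 (SE 0.18) and Lpl, lipoprotein lipase, by 1.39 (SE 0.16). Scd1, a fatty acid desaturase gene, was at 25.9, 28.9 and 29.3 CPM against 0.670, 4.74 and 1.28 CPM, and its call was lost without control replicate 2, control replicate 3 or Smad4 cKO replicate 3. The cholesterol exporters did not follow, since Abca1 and Abcg1 had log2 fold changes of -0.01 and 0.59 (edgeR adjusted p = 0.98 and 0.14), and Apoe had 0.08 (edgeR adjusted p = 0.92).

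The lipogenesis list had 1 DEG in each direction, Scd1 and Mlxipl. Mlxipl, which encodes the glucose-responsive factor ChREBP, was at 0.546, 0.520 and 0.620 CPM in controls and at 45.7, 55.9 and 74.1 CPM in Smad4 cKO (log2 fold change 6.70, SE 0.25, edgeR adjusted p = 4.2e-05). The groups lay far apart, with little spread in either. Among 20 cholesterol synthesis genes, 0 were DEGs in edgeR (1 without Smad4 cKO replicate 3) and 1 was with DESeq2, and their log2 fold changes ran from -1.15 to 0.36.

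In the complement, lectin and scavenger lists, more genes fell than rose, and most members were no DEGs. Of 20 complement genes tested, 7 fell and 1 rose. C6, a component of the membrane attack complex, was at 989, 1301 and 1014 CPM in controls and at 121, 102 and 110.3 CPM in Smad4 cKO (fell by 3.31 on the log2 scale, SE 0.16, edgeR adjusted p = 7.1e-05). Cfp, properdin, fell by 1.45, and Cfb and C2, proteases of the alternative and classical pathways, fell by 2.43 and 1.61, with overlapping exons of Gm20547 on the same strand. Without any of the 3 control libraries or Smad4 cKO replicate 1, 3 complement genes were still lower DEGs, and Cfb and C2 were lost in each of those fits. With the endothelial share as a covariate the count was 4, and with the replicate block 4. C5ar1, the C5a receptor, was the gene that rose (from 65.4, 42.3 and 39.4 CPM to 143, 210.0 and 269 CPM).

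Of 21 C-type lectin genes, 7 fell and 1 rose. Besides Clec4f, Cd207 and Clec1b, the lectin gene Cd209f went from 234, 267 and 133 CPM to 7.63, 3.98 and 14.8 CPM (fell by 4.58 on the log2 scale, SE 0.53, edgeR adjusted p = 0.0025). Mgl2, a galactose-type lectin gene, rose at a low level, from 2.72, 1.84 and 1.72 CPM to 5.37, 9.86 and 11.7 CPM, a call that was lost without control replicate 3. Of 23 scavenger and efferocytosis genes, 6 fell and 2 rose. Colec12, a collectin scavenger receptor gene, fell to 0.607 CPM, under the 0.821 CPM that ECs would supply. Stab1 and Gas6, which ECs express as well, rose. Stab1, the scavenger receptor stabilin-1, was at 235, 81.1 and 199.5 CPM in controls, where ECs would supply 132 CPM, and at 887, 716 and 1067 CPM in Smad4 cKO, where they would supply 162 CPM (log2 fold change 2.37, SE 0.38, edgeR adjusted p = 0.010). Gas6, a ligand that bridges dying cells to MERTK and AXL, was at 29.1, 15.9 and 32.3 CPM against 92.3, 84.0 and 109 CPM, and ECs would supply 24.3 and 29.8 CPM. In both genes the Smad4 cKO level was above these values. At the highest share of the 14 endothelial genes, ECs would supply 435, 444 and 380 CPM of Stab1 in Smad4 cKO, still below the measured level, and 80.3, 82.0 and 70.2 CPM of Gas6, which is close to it in replicate 2.

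Genes known from microglia, the macrophages of the brain, were the list with the widest gain. Of 15 tested, 10 rose and 1 fell, beside 2.76 and 2.67% of all genes, with a median log2 fold change of 1.89. In the fits that left out a library, 8 to 10 genes of the list rose. Cx3cr1, the fractalkine receptor of monocytes, microglia and other tissue macrophages, was at 10.4, 11.8 and 9.47 CPM in controls and at 699, 624 and 902 CPM in Smad4 cKO (log2 fold change 6.14, SE 0.21, edgeR adjusted p = 4.2e-05). Slco2b1, an organic anion transporter gene, was at 1.28, 0.974 and 3.66 CPM in controls, close to the 1.32 CPM that ECs would supply, and at 153, 123 and 166 CPM in Smad4 cKO (log2 fold change 6.22, SE 0.55, edgeR adjusted p = 0.00086). All values of both genes lay apart between the groups by more than their spread.

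Further microglia genes rose from lower levels. Gpr34, a lysophospholipid receptor gene, went from 0.165, 0.266 and 0.397 CPM to 5.53, 6.30 and 6.60 CPM (log2 fold change 4.47, SE 0.36, edgeR adjusted p = 0.00059), and Fcrls, an Fc receptor-like gene, from 0.577, 0.476 and 0.455 CPM to 4.86, 12.03 and 7.69 CPM (log2 fold change 4.02, SE 0.38, edgeR adjusted p = 0.0010). Siglech and Tmem119, microglial surface protein genes, rose by 2.98 and 2.08, and Siglech is known from plasmacytoid dendritic cells too. The list of 8 dendritic cell genes is not particular to plasmacytoid cells and includes Siglech. It summed to 36.8 to 57.3 CPM in controls and 36.2 to 51.6 CPM in Smad4 cKO, and to a mean of 470.7 CPM in control ECs. The part of plasmacytoid cells in the rise of Siglech was not tested. Sall1, the transcription factor that defines microglia, had 0 counts in each of the 6 libraries, and P2ry12, a microglial purine receptor gene, was no DEG (log2 fold change -0.39, edgeR adjusted p = 0.13). Gpr84, a fatty acid receptor gene, was the member that fell, from 8.78, 8.42 and 5.99 CPM to 2.50, 3.06 and 3.00 CPM (edgeR adjusted p = 0.0082). The gain thus covered part of the list and not its defining transcription factor.

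Of 20 genes of interstitial macrophages, which live along vessels and nerves of many organs, 8 rose and 6 fell. Cbr2, a carbonyl reductase gene, was at 4.66, 7.55 and 4.66 CPM in controls and at 1199.5, 985 and 1457 CPM in Smad4 cKO (log2 fold change 7.75, SE 0.31, edgeR adjusted p = 4.7e-05). Cd63, a tetraspanin of late endosomes, rose from 16.2, 18.9 and 26.3 CPM to 188, 155 and 282 CPM (log2 fold change 3.35, SE 0.29, edgeR adjusted p = 0.00080). Pf4, a chemokine gene expressed by platelets and by resident macrophages, rose by 2.44 (SE 0.21), whereas the 6 platelet and erythroid genes tested held 0 DEGs. Folr2, Cd209f and Ccl24, which also belong to this list, fell. Members of the list thus moved in both directions. Lyve1 and Mrc1 were no DEGs, but sinusoidal ECs express both, and the part of ECs in their levels was not tested.

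Most monocyte genes were no DEGs. Of 16 tested, 1 rose (6.25%) and 2 fell (12.5%), beside 2.76 and 2.67% of all genes. Ccr2, the receptor by which monocytes leave the marrow, was at 7.62, 8.74 and 7.66 CPM in controls and at 3.11, 8.42 and 5.40 CPM in Smad4 cKO, overlapping values (log2 fold change -0.50, SE 0.34, edgeR adjusted p = 0.46). Treml4, a receptor gene of non-classical monocytes and KCs, overlapped as well, at 506, 751 and 591 CPM against 661, 637 and 793 CPM (log2 fold change 0.18, SE 0.17, edgeR adjusted p = 0.63). Plac8, a monocyte gene, went from 123, 152 and 121 CPM to 4.53, 11.5 and 8.31 CPM (fell by 4.02 on the log2 scale, SE 0.34, edgeR adjusted p = 0.00078), and Ms4a4c fell by 1.51, a call that was lost without Smad4 cKO replicate 1 or replicate 3. Mgst1, a glutathione transferase gene, rose by 1.27, and the count of rises was 2 without Smad4 cKO replicate 2 or replicate 3 or with library size alone as scaling, 3 with DESeq2 and 0 with glmTreat, an edgeR test for changes beyond the log2 threshold of 1.

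Of 20 genes of lipid-associated macrophages, 3 rose and 1 fell. Lgals1, galectin-1, rose from 42.5, 22.3 and 35.4 CPM, where ECs would supply 19.5 CPM, to 208, 205 and 195 CPM, and Cd9 from 33.3, 21.05 and 29.5 CPM, where ECs would supply 20.9 CPM, to 60.2, 56.3 and 77.5 CPM. The call of Cd9 was lost without control replicate 3, and at the highest share of the 14 endothelial genes ECs would supply 69.0, 70.4 and 60.3 CPM of it in Smad4 cKO, more than was measured in 2 of the 3 libraries. Trem2, the receptor that defines these cells, was no DEG (log2 fold change 0.01, edgeR adjusted p = 0.98), nor was Gpnmb or Spp1.

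**Figure D3:**
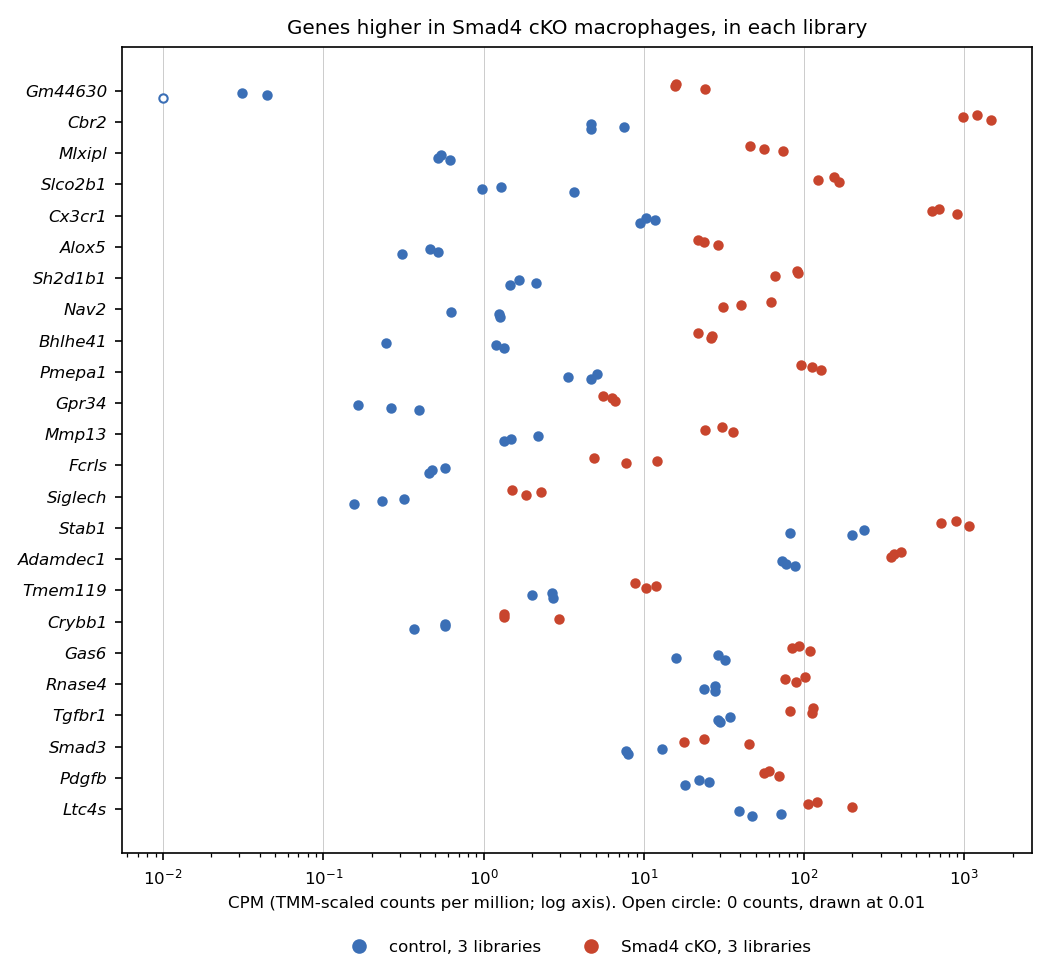
CPM (log axis) in each of 3 control (blue) and 3 Smad4 cKO (red) libraries for the genes with the largest rises, genes of the microglia list that rose, and TGF-beta, scavenger, growth factor and protease genes named in the text, with open circles for 0 counts. The groups do not overlap in any row, and Cbr2 and Cx3cr1 rise from 4.66 to 11.8 CPM to between 624 and 1457 CPM.

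The interferon-stimulated list held falls and no rises. Of 29 tested, 8 fell and 0 rose, 28 had a log2 fold change below 0, and the median was -0.79. Oasl1 and Oas3, antiviral 2′-5′-oligoadenylate synthetase family genes, went from 117, 131 and 98.0 CPM to 18.5, 11.8 and 6.23 CPM and from 93.8, 94.3 and 71.8 CPM to 11.5, 15.7 and 4.21 CPM (fell by 3.24 and 3.04 on the log2 scale, SE 0.38 and 0.44, edgeR adjusted p = 0.0026 and 0.0065). Ifit2, an interferon-induced RNA binding protein gene, fell by 1.84 (SE 0.23, edgeR adjusted p = 0.0032) and the antiviral gene Rsad2 by 1.58 (SE 0.24, edgeR adjusted p = 0.0084). The count was 5 without control replicate 2, without Smad4 cKO replicate 1 or with the endothelial share as a covariate, and 13 with the T and NK marker sum as a covariate. Of 14 guanylate-binding and immunity-related GTPase genes, 3 fell (Gbp4, Gbp8 and Gbp9, whose exons overlap on the same strand, so their reads are not fully separate). Leaving out a library gave 1 to 2 falls: Gbp4 stayed a DEG in all 6 of these fits, Gbp8 in 3 and Gbp9 in 2. Gbp4 in Smad4 cKO, at 5.96 CPM, was under the 8.03 CPM that ECs would supply.

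Among 21 cytokine genes tested, 4 fell and 1 rose. Il1rn and Il18bp, which encode the natural inhibitors of interleukin-1 and interleukin-18, were at 49.8, 54.1 and 55.6 CPM against 3.21, 4.34 and 1.75 CPM, and at 1329.5, 2109 and 1629 CPM against 122, 114 and 98.6 CPM (fell by 4.09 and 3.92 on the log2 scale, SE 0.32 and 0.21, edgeR adjusted p = 0.00056 and 0.00010). Il1b, the cytokine that the former blocks, fell as well, from 134, 149 and 265 CPM to 21.5, 20.7 and 49.2 CPM (fell by 2.58, SE 0.42, edgeR adjusted p = 0.010), a call lost without Smad4 cKO replicate 1. Il6 went from 2.39, 1.34 and 1.599 CPM to 0.0824, 0.112 and 0.358 CPM, a call lost without control replicate 1, control replicate 3 or Smad4 cKO replicate 1, and the lower count was 2 without Smad4 cKO replicate 1. Osm, oncostatin M, rose from 0.0412, 0.310 and 0.145 CPM to 2.89, 4.61 and 3.16 CPM.

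Of 29 chemokine and chemokine receptor genes, 5 fell and 3 rose. Besides Cxcl13, the eosinophil attractant Ccl24 went from 347, 394 and 286 CPM to 32.5, 43.9 and 63.4 CPM (fell by 2.88 on the log2 scale, SE 0.26, edgeR adjusted p = 0.00094). Ccr1, a receptor for inflammatory chemokines, rose from 0.834, 1.97 and 1.94 CPM to 23.4, 27.03 and 38.1 CPM (log2 fold change 4.22, SE 0.38, edgeR adjusted p = 0.00093). Without control replicate 3 or without Smad4 cKO replicate 1, 3 genes of the list fell, and with the T and NK marker sum as a covariate 9 rose. Smad4 cKO replicate 3 stood apart in 3 chemokine genes that were no DEGs and were chosen after their values were seen, since Cxcl2 was at 130.4 CPM there against 4.09 to 12.8 CPM in the other 5 libraries, Ccl3 at 159.9 against 6.06 to 32.3 CPM and Ccl4 at 68.7 against 6.35 to 22.6 CPM.

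Most antigen presentation genes were no DEGs. In the list of 15 MHC class II genes and partners, H2-Ob rose and Cd40 fell, the latter being a costimulatory receptor and not an MHC gene (edgeR adjusted p = 0.013, and 0.059 with the replicate block), and of 14 MHC class I genes, H2-T23 fell, with log2 fold changes of 1.24, -1.45 and -1.10. H2-Ob is known from B cells, whose marker sum of 105 to 161 CPM in controls and 217 to 229 CPM in Smad4 cKO did not overlap, but did without Cd79b, and the part of B cells in this call was not tested. The calls of H2-Ob and H2-T23 were lost without control replicate 3. H2-Ab1 was at 9338, 12132 and 14002 CPM against 10589.7, 11612 and 18664 CPM. Of 20 Toll-like receptor genes and partners, Tlr11 and Cd14 fell, with neither called without control replicate 3 or without Smad4 cKO replicate 1, and Tlr4 overlapped between the groups. Of 11 Fc receptors tested, Fcgrt, the neonatal Fc receptor, rose by 1.06 together with Fcrls, a call lost without Smad4 cKO replicate 3.

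The cell cycle list held rises and no falls. Of 33 genes, 12 rose and 0 fell, with a median log2 fold change of 0.66 and 31 values above 0. Birc5, which encodes survivin, was at 7.76, 6.68 and 4.55 CPM in controls and at 28.8, 25.6 and 15.9 CPM in Smad4 cKO (log2 fold change 1.89, SE 0.28, edgeR adjusted p = 0.0079). Plk1, a mitotic kinase gene, was at 2.46, 3.28 and 2.10 CPM against 11.6, 14.4 and 4.94 CPM (log2 fold change 1.99, SE 0.40, edgeR adjusted p = 0.024). The genes named by rule, with Nusap1, Kif11, Cenpf and Ccnb1, act in mitosis, and the log2 fold changes of the 33 genes ran from -0.29 to 1.99. Mki67 was at 13.8, 9.01 and 8.51 CPM against 44.95, 20.4 and 20.1 CPM and was no DEG (log2 fold change 1.45, edgeR adjusted p = 0.054). The count was 2 without control replicate 2, without control replicate 3 or without Smad4 cKO replicate 1, 5 without control replicate 1 or Smad4 cKO replicate 2, and 3 with the endothelial share as a covariate, while among the 6 genes named here Birc5 stayed a DEG without each library. T and NK cells also divide, and their marker sum was 94.6 to 219 CPM in controls and 155, 436 and 96.4 CPM in Smad4 cKO. With that sum as a covariate, 9 cell cycle genes rose. The B and plasma cell marker sum was 105 to 161 CPM in controls and 217 to 229 CPM in Smad4 cKO, and overlapped between the groups without Cd79b, and its part was not tested.

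Iron handling genes moved individually. Of 22 tested, 2 rose and 1 fell, while 2 fell without control replicate 3, with DESeq2 or its size factors, with a filter of at least 10 counts in every library, with the replicate block, with the T and NK marker sum as a covariate or without genes far higher in ECs, and 0 with glmTreat. Cp, the copper ferroxidase ceruloplasmin, rose from 12.6, 13.5 and 14.6 CPM to 75.7, 61.2 and 70.3 CPM (log2 fold change 2.35, SE 0.14, edgeR adjusted p = 0.00014), and Trf, transferrin, from 1317, 1015 and 1228 CPM to 2781, 4804 and 3727 CPM (log2 fold change 1.67, SE 0.21, edgeR adjusted p = 0.0040). Ncoa4, the receptor that sends ferritin to lysosomes, fell by 1.48 (SE 0.17, edgeR adjusted p = 0.0027). Of 30 lysosomal genes, 2 rose, Cd63 among them, and 2 fell, the proteases Lgmn and Ctsh, by 1.16 and 1.12, the latter call being lost without control replicate 2 or Smad4 cKO replicate 1.

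Genes of adhesion and matrix turnover exchanged members. Of 23 integrin and adhesion genes, 4 rose and 3 fell. Itgal, the alpha chain of LFA-1, was at 273, 246 and 254 CPM in controls and at 28.2, 33.6 and 26.7 CPM in Smad4 cKO (fell by 3.13 on the log2 scale, SE 0.14, edgeR adjusted p = 5.1e-05). Itgad, the alpha D chain, rose from 0.0824, 0.243 and 0.107 CPM to 10.9, 5.60 and 4.09 CPM (log2 fold change 5.58, SE 0.58, edgeR adjusted p = 0.0015), and Itga6, a laminin receptor chain, by 2.62 (SE 0.31). Without control replicate 3, 2 genes of the list rose. Cd44, the hyaluronan receptor, was a DEG with all 6 libraries (log2 fold change -1.28, edgeR adjusted p = 0.045) and in none of the fits that left out a library.

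Of 20 matrix proteases and inhibitors, 4 fell and 4 rose. Mmp9, a gelatinase, went from 51.0, 16.0 and 30.1 CPM to 0.0618, 0.379 and 0.764 CPM (fell by 6.35 on the log2 scale, SE 0.82, edgeR adjusted p = 0.0041). Mmp13, a collagenase, went from 2.18, 1.48 and 1.34 CPM to 30.8, 24.2 and 35.8 CPM (log2 fold change 4.18, SE 0.26, edgeR adjusted p = 0.00018). Adamdec1, a metalloprotease gene of tissue macrophages, rose from 72.5, 77.5 and 87.4 CPM to 403, 363 and 347 CPM (log2 fold change 2.23, SE 0.13, edgeR adjusted p = 0.00014). These 3 genes did not overlap between the groups.

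Of 18 growth factor and receptor genes tested, 4 fell and 1 rose. Pdgfb, a platelet-derived growth factor chain that acts on stellate cells, was at 22.0, 25.6 and 18.1 CPM in controls and at 60.4, 56.4 and 70.0 CPM in Smad4 cKO (log2 fold change 1.51, SE 0.16, edgeR adjusted p = 0.0018). Hbegf, an EGF receptor ligand gene, fell by 2.18 (SE 0.30), and Csf2rb, the shared beta chain of the GM-CSF, IL-3 and IL-5 receptors, and Csf2rb2, a close relative that serves the IL-3 receptor, fell by 1.39 and 1.70, though reads of such similar genes may be split between them. Of 27 immediate early and stress genes, which rise when cells are handled during a sort, Egr2 was the DEG, at 0.999 to 1.34 CPM in controls and 2.26 to 3.63 CPM in Smad4 cKO, a call lost in 5 of 6 fits that left out a library.

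The remaining genes with the largest changes belong to no list. Alox5, which encodes the leukotriene enzyme 5-lipoxygenase, rose from 0.463, 0.520 and 0.310 CPM to 21.8, 23.8 and 28.8 CPM (log2 fold change 5.85, SE 0.26, edgeR adjusted p = 5.1e-05). Sh2d1b1, an adaptor gene of SLAM family receptors, rose by 5.56 (SE 0.23), Nav2, a cytoskeletal gene, by 5.41 (SE 0.39), and the predicted gene Gm44630 from at most 0.0443 CPM to 15.8, 15.6 and 23.9 CPM. Among the falls, Slc1a2, a glutamate transporter gene, went from 72.9, 88.7 and 47.9 CPM to 0.577, 0.396 and 0.167 CPM (fell by 7.50 on the log2 scale, SE 0.47, edgeR adjusted p = 0.00018). Fam167a, Ccdc148 and Btbd11 fell by 8.81, 5.82 and 5.74 (SE 0.65, 0.59 and 0.46).

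**Figure D4:**
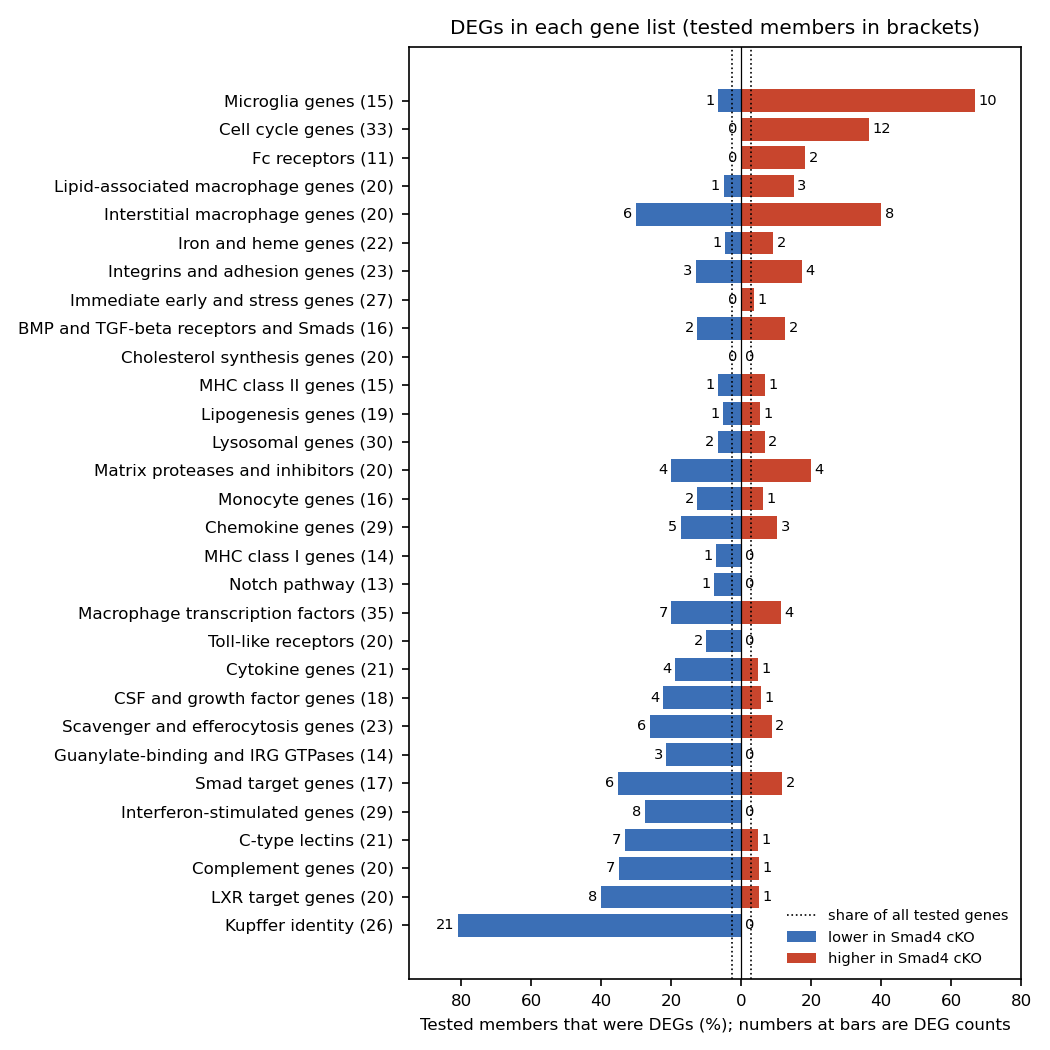
Share of the tested members of each of 30 gene lists (in percent, tested members in brackets) that were DEGs lower (left, blue) or higher (right, red) in Smad4 cKO, with counts at the bars. Dotted lines mark the shares of all tested genes, 2.67% lower and 2.76% higher: the Kupffer identity list reaches farthest to the left with 21 of 26, and the microglia list farthest to the right with 10 of 15.

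The closest comparison in the series is that of macrophages from HSC-KO mice (LratCre with floxed Gdf2 and Bmp10), mice of the same strain and age range in which the ligands are deleted in hepatic stellate cells while the macrophages keep Smad4, and it shares no sample with the present libraries. The interaction of genotype and experiment was tested over 12 macrophage libraries, and the effects of Smad4 loss and ligand loss differed for 473 of 18149 genes (2.61%, by edgeR with the thresholds given above, here applied to the difference). Of the 118 genes chosen by the naming rule, 29 differed. Most of them were chosen for a large effect of Smad4 loss, which is part of the difference tested. Their share is therefore not comparable with the 2.61% of all genes. The endothelial share was 0.0447 to 1.73% in those 6 libraries, below all 6 Smad4 libraries, so the residual levels of genes that ECs express are not like for like. With the endothelial share as a covariate, the count was 153.

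The KC gene Vsig4 fell less after Smad4 loss than after ligand loss, and the measured level of the BMP target Id3 did so too. In the ligand experiment, Id3 was at 1157, 955 and 992 CPM in controls and at 1.80, 2.02 and 6.52 CPM in HSC-KO macrophages, and the difference of the log2 fold changes was 5.74 (SE 0.56, edgeR adjusted p = 0.00047). The endothelial share of the ligand libraries was at most 1.73%, and at the highest share of the 14 endothelial genes ECs would supply 359, 366 and 313 CPM of the 372, 415 and 336 CPM of Id3 in Smad4 cKO, so a smaller fall in macrophages is not settled for Id3. Id1 differed by 4.58 (SE 0.78, edgeR adjusted p = 0.011), but the Id1 left in Smad4 cKO libraries was not above the EC-supplied level, so a smaller fall in macrophages is not shown. Vsig4, of which ECs would supply 0.372 CPM in Smad4 cKO, differed by 4.06 (SE 0.66, edgeR adjusted p = 0.0086), at 16.0, 8.10 and 48.1 CPM in HSC-KO macrophages against 342, 334 and 377 CPM in Smad4 cKO. Timd4 differed by 1.66 (edgeR adjusted p = 0.040), a call lost in 9 of 12 fits that left out a library, whereas for Clec4f and Cd5l the differences of -4.23 (SE 1.13) and 1.03 (SE 0.96) were not past the threshold (edgeR adjusted p = 0.074 and 0.67). Both rested on 1 library, since the Clec4f difference was -6.66 and past the threshold without Smad4 cKO replicate 1, and the Cd5l difference was 2.63 and past it without HSC-KO replicate 3.

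The effects of Smad4 loss and ligand loss differed for the monocyte receptor Ccr2. It was at 9.49, 6.89 and 4.07 CPM in controls and at 33.2, 84.1 and 83.4 CPM in HSC-KO macrophages, and the effect of Smad4 loss was lower by 3.84 on the log2 scale (SE 0.60, edgeR adjusted p = 0.0067). Treml4, which did not pass the threshold after Smad4 loss, was lower in HSC-KO macrophages, and the effects differed by 2.14 (SE 0.38, edgeR adjusted p = 0.014). Cx3cr1 rose in both experiments, and the difference of -0.01 (SE 0.29, edgeR adjusted p = 1.0) ran over the alternatives from -0.20 to 0.32.

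Gained genes differed both ways. Fcrls, Cd63 and Tmem119 rose less after Smad4 loss, by 5.77, 3.59 and 2.82 on the log2 scale (SE 0.68, 0.38 and 0.30, edgeR adjusted p = 0.0012, 0.00071 and 0.00071). Mlxipl was at 0.910, 0.848 and 0.524 CPM in the ligand controls and at 0.832, 1.82 and 1.26 CPM in HSC-KO macrophages, so that its rise after Smad4 loss was higher by 5.89 (SE 0.43, edgeR adjusted p = 0.00016). Nav2 and Adamdec1 were likewise higher by 4.50 and 1.99 (SE 0.49 and 0.26, edgeR adjusted p = 0.00083 and 0.0020), and the cell cycle gene Birc5 by 2.39 (SE 0.39, edgeR adjusted p = 0.0093).

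**Figure D5:**
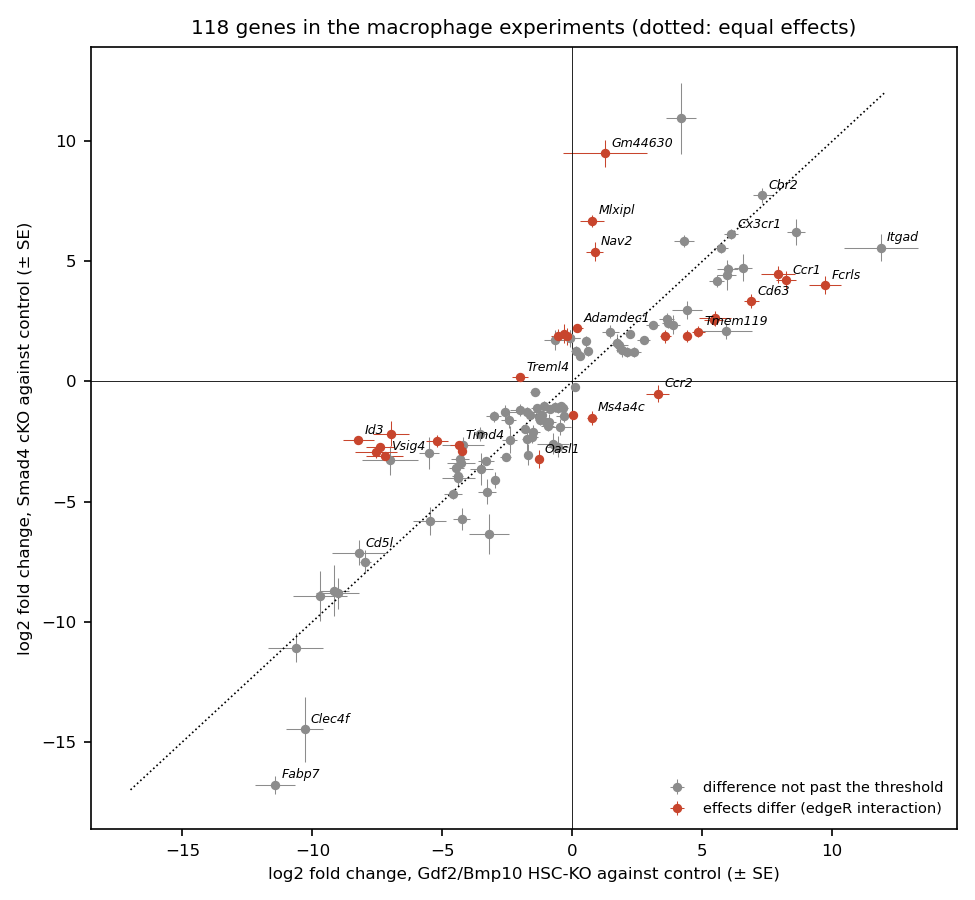
Log2 fold change (± SE) of the 118 rule-chosen genes after Smad4 loss (vertical) against that after loss of Gdf2 and Bmp10 in stellate cells (horizontal), from experiments that share no samples, with red for the 29 genes whose effects differed in the edgeR interaction test. Id3 and Vsig4 lie above the dotted line of equal effects among the falls, Ccr2 and Fcrls below it, and Mlxipl and Nav2 near 0 on the horizontal axis.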

How the data were processed

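Total RNA of sorted liver macrophages was sequenced as bulk RNA-seq. Per the labels, the authors used FastQC, HISAT2, featureCounts and DESeq2 with the mm10 (GRCm38) genome, and deposited counts per gene symbol that are whole numbers and not normalized. Versions, and whether counting used the strand, are not given in the sources used here, so a gene and an overlapping antisense gene may share reads. Per the labels, the library kit was a dual-mode kit, and the study's methods name another. Libraries were grouped by their labels and column names.

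In R 4.3.3, edgeR 4.0.16 was used to keep genes by filterByExpr (count of 10, total of 15), to compute TMM factors from the 6 libraries and to test them by glmQLFit and glmQLFTest (with limma 3.58.1), Benjamini-Hochberg adjusted over all 17517 genes. The SE is the log2 fold change divided by the square root of F. CPM are counts relative to the TMM-scaled library. A group with at most 3 counts in each library was set to that floor, the highest of its libraries, for a bound. Counting error and not library preparation is what the floor covers. The interaction used 12 macrophage libraries, both experiments' genotypes and the same thresholds. 237 symbols occur on several rows, which were kept apart in the main fit and left out of the interaction. Both fits were tested on simulated data. Coordinates and exon overlaps come from GENCODE vM21 and promoters from RefSeq (GRCm38.p6), read with Python 3.11.15. DESeq2 1.42.0 was an alternative.

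Named genes are Smad4, 15 genes that the study names for liver macrophages, 10 DEGs per direction taken by size of change (where groups did not overlap and the mean log2 CPM was 3 or more), and in each list up to 6 DEGs with the largest change. List members that were no DEGs appear by range or as a defining gene. Others named (Id2, Smad7, Hmox1, Slc40a1, Cd163, Cd38, Spic, Mki67, Adgre1, Gpr84, Abca1, Abcg1, Cd79b, Ecm1, Cxcl2, Ccl3, Ccl4) were chosen after their values were seen, as was the B cell marker sum without Cd79b. The part described and all lists were chosen with earlier results of these data known. Some genes that these rules select are not reported here.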

Additional observations from a re-analysis of the deposited data

How the results depend on the processing

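With all 6 libraries, 951 genes were DEGs, 484 higher and 467 lower, and 143 of them were in the program lists. glmTreat, which tests for changes beyond the log2 threshold of 1, called 315, 134, 181 and 66 of these, and under it Smad4, at the same log2 fold change of -1.39, was not past the threshold (adjusted p = 0.18). Leaving out each library in turn gave 566 to 909 DEGs, 254 to 429 higher and 312 to 497 lower, and 489 DEGs were called in all 6 of those fits. Leaving out control replicate 3 gave 566 DEGs with 254 higher, and leaving out Smad4 cKO replicate 1 gave 624 with 288 higher. With library size alone as scaling, 645 genes were higher and 389 lower. DESeq2 called 1296 genes, 942 of the 951 among them. The replicate block gave 716 DEGs. Same-numbered samples had correlations of -0.01, 0.10 and -0.10 in their deviations from the group means. With 3 libraries per group, this does not settle whether the numbers pair the samples. The effect of Smad4 loss differed from that of ligand loss for 473 genes, for 1034 with DESeq2, for 299 with the replicate block, for 153 with the endothelial share as a covariate, and for 233 to 556 when a library was left out (301 and 312 without HSC-KO replicates 1 and 2, 267 and 233 without Smad4 control replicates 2 and 3, 276 without Smad4 cKO replicate 1). The cause was not tested. Of 1975 values of named genes under the alternatives, 1782 stayed on the same side of the threshold, 193 no longer passed it and 0 changed direction. Of 960 list counts outside glmTreat, 859 stayed within 1.5 times. The alternatives with genes at 0 in 1 library left out and with the T and NK marker sum were chosen after seeing the data.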

Other observations

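In 3 genes, a library had 0 counts where every other library had over 300. Kctd12 had 0 counts in Smad4 cKO replicate 2 and 11363 to 13093 in the other 5 libraries, Eif3j2 had 0 in control replicate 2 and 678 to 1029 in the others, and Ap4b1 had 0 in Smad4 cKO replicate 3 and 584 to 962 in the others. None was a DEG, and without these genes 953 DEGs were called.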
